A study of Mus musculus with 12 samples.

Results

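The miR-29 family was followed in the hearts of diabetic and non-diabetic mice that did or did not receive pargyline, an inhibitor of the monoamine oxidases (MAO), mitochondrial enzymes that break down amines and release hydrogen peroxide. Members were taken by name, and 4 of the 1881 miRNAs on the array belong to them, namely mmu-miR-29a-3p, mmu-miR-29b-3p, mmu-miR-29c-3p and mmu-miR-29c-5p, written here without the species prefix. The first 3 are the mature strands through which the family is known to act, and the fourth is the opposite arm of the miR-29c hairpin. The study asked how MAO inhibition alters miRNA levels in the diabetic heart, and each of 12 hearts was hybridized to 1 array.

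All mice were male, of strain C57BL6/J and 5 months old, and 3 hearts were profiled in each of 4 groups. Control mice (C) received neither agent, and the text of the study gives them as vehicle-treated while the deposited design gives them as untreated. Control mice with pargyline (C+P) received a daily 50 mg/kg of it over 12 weeks. Diabetic mice (D) were given streptozotocin, which destroys pancreatic beta cells, over 5 days at a daily 50 mg/kg, and a blood glucose of at least 17 mM defined diabetes. Diabetic mice with pargyline (D+P) received both agents at these doses. Streptozotocin gives a chemically induced model of type 1 diabetes, and pargyline is an irreversible inhibitor that can block both MAO isoforms.

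MiR-29 miRNAs pair through their seed, bases 2 to 8 of the mature strand, with mRNAs of the extracellular matrix, among them fibrillar collagens, elastin and fibrillin, and lower the amount of protein made from them. In the heart the family is known to be enriched in fibroblasts relative to cardiomyocytes, and its loss has been tied to collagen deposition and fibrosis. Of each hairpin, 1 arm usually accumulates while the other is degraded, and for miR-29 the accumulating arm is the 3p strand.

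The mature sequences are shown because the comparison of the members turns on how little they differ. They are those of RefSeq (mouse build GRCm38.p6), matched by name for 4 of 4 members, written 5′ to 3′ with the seed in capitals.
mmu-miR-29a-3p: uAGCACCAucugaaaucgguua
mmu-miR-29b-3p: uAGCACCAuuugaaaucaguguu
mmu-miR-29c-3p: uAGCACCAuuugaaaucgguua
mmu-miR-29c-5p: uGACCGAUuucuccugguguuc

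The 3p members share 1 seed, and among the 1679 mature miRNAs of the reference table only these 3 carry it. MiR-29c-5p has a seed that no other miRNA of the table holds, so it is not expected to pair with the same sites. Positions are counted from 1 at the 5′ end. MiR-29c-3p differs from miR-29a-3p at 1 of 22 positions (C10U), just outside the seed. MiR-29b-3p has the same substitution and differs from miR-29a-3p at 3 further positions near its 3′ end (G18A, U21G and A22U), with 1 extra base. MiR-29b-3p and miR-29c-3p are identical over their first 17 bases. How far the probes tell these sequences apart was not tested, so a signal of one member may hold some of another.

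The family comes from a pair of loci. On the minus strand of chromosome 6, Mir29a (chr6:31062660-31062747) and Mir29b-1 (chr6:31063023-31063093) lie 275 bases apart, and the RefSeq annotation places no other gene around them. On the plus strand of chromosome 1, Mir29b-2 (chr1:195037040-195037120) and Mir29c (chr1:195037547-195037634) lie 426 bases apart within the span of the long noncoding RNA gene A330023F24Rik. MiR-29a-3p maps to chr6:31062673-31062694, miR-29c-5p to chr1:195037562-195037583 and miR-29c-3p to chr1:195037600-195037621. MiR-29b-3p maps to both chr6:31063025-31063047 and chr1:195037091-195037113 with 1 sequence, so the array sums both loci.

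The brightness of the arrays differed between groups. C hearts had 144 to 163 detected miRNAs and a summed signal of 27107 to 35028, C+P hearts 214 to 253 and 57895 to 89040, D hearts 165 to 203 and 48104 to 61254, and D+P hearts 187 to 218 and 39661 to 58631. Signals were therefore compared after log2 transformation and cyclic loess normalization over the 128 miRNAs detected on all 12 arrays, and a normalized change is relative to the average miRNA. The arrays of C and D lay on one slide and those of C+P and D+P on the other, so the slide cannot be told apart from pargyline. On both slides the non-diabetic and the diabetic mice lay in different rows of arrays, so row and diabetes are likewise confounded. Of the heart's muscle markers, 4 of 4 cardiomyocyte miRNAs were detected on all 12 arrays, while miR-122-5p of liver and miR-124-3p and miR-9-5p of neurons were detected on 0. Among leukocyte miRNAs, miR-142a-3p, miR-223-3p and miR-146a-5p were detected on 12 arrays and miR-142a-5p and miR-155-5p on 7. Red cell miRNAs (miR-451a, miR-144-3p, miR-486a-5p) and smooth muscle miRNAs (miR-143-3p, miR-145a-5p) were detected on 12. Of endothelium, miR-126a-3p was detected on 12 and miR-126a-5p on 9. With whole heart RNA, fewer cells of a type and less RNA per cell cannot be told apart.

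MiR-29a-3p, which is transcribed with miR-29b-1, was detected in all 12 hearts. Its scanner signal, in the arbitrary units of the scanner software, was 378, 313 and 391 in the C hearts and 710, 734 and 1194 in the C+P hearts. It was 1045, 792 and 648 in the D hearts and 401, 690 and 841 in the D+P hearts. Before normalization, each of the C hearts was thus below every other heart, with D+P replicate 1 the next lowest.

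MiR-29b-3p, the product of both loci, had scanner signals of 186, 188 and 185 in C and of 390, 435 and 714 in C+P. It measured 414, 445 and 295 in D and 166, 409 and 476 in D+P. The C hearts were nearly identical, and D+P replicate 1 was the only heart below them.

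MiR-29c-3p, transcribed with miR-29b-2, gave 273, 243 and 288 in C and 510, 538 and 962 in C+P. It gave 556, 501 and 378 in D and 289, 459 and 562 in D+P. For each 3p member the highest value of the 12 hearts was that of C+P replicate 3, which was also the array with the highest summed signal. Between the dimmest and the brightest heart the raw signal spanned 3.82-fold for miR-29a-3p, 4.30-fold for miR-29b-3p and 3.96-fold for miR-29c-3p.

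**Figure D1:**
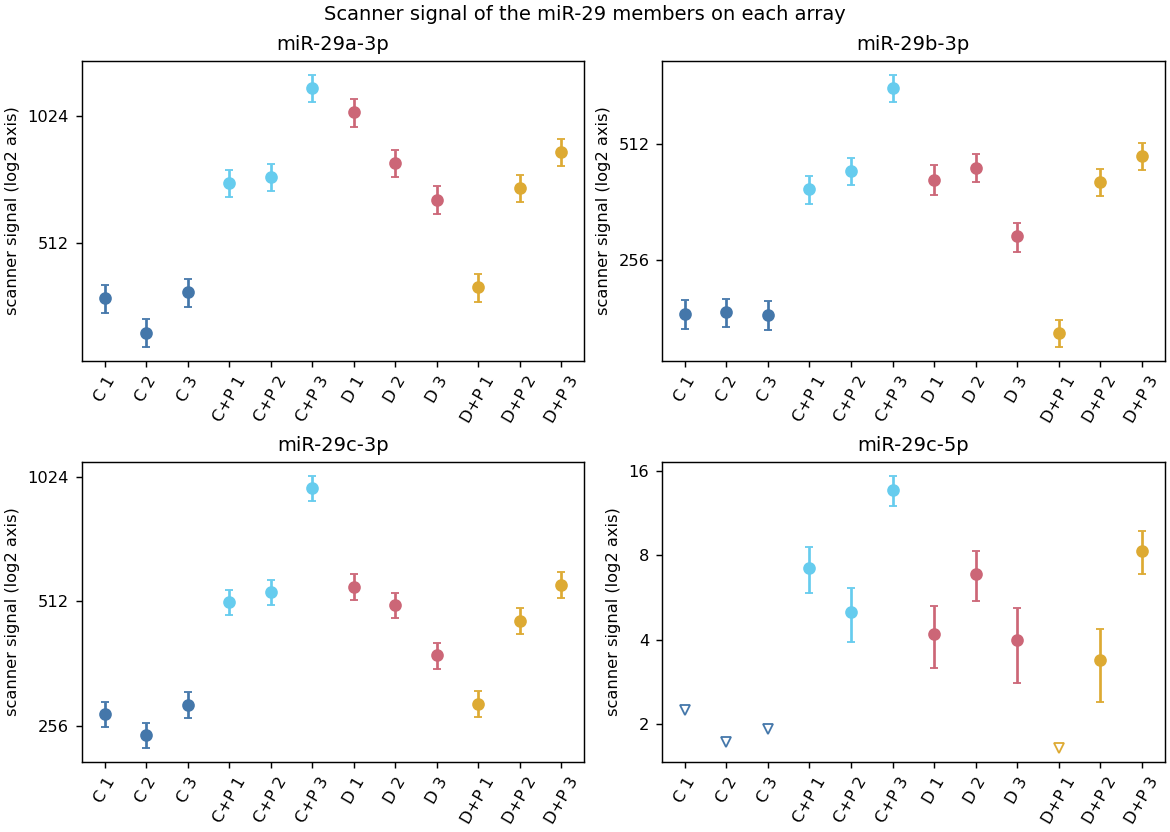
Scanner signal of the 4 miR-29 members on each of the 12 arrays (log2 axis, arbitrary units), with bars for the error that the scanner software gives. Open triangles mark arrays on which miR-29c-5p was not detected, drawn at the lowest detected signal of that array, and the 3p members share their order of arrays to a large extent, from the dim C arrays to C+P replicate 3.

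After normalization the 3p members lay within narrow bands. MiR-29a-3p had a normalized log2 signal of 9.26 ± 0.05 in C, 9.14 ± 0.05 in C+P, 9.34 ± 0.12 in D and 9.42 ± 0.13 in D+P (SD, n = 3 hearts, here and below). MiR-29b-3p had 8.22 ± 0.16, 8.42 ± 0.02, 8.32 ± 0.16 and 8.36 ± 0.25 in the same order. MiR-29c-3p had 8.79 ± 0.07, 8.76 ± 0.07, 8.60 ± 0.02 and 8.81 ± 0.14. The order of the group means thus differed between members, with D+P highest for miR-29a-3p and miR-29c-3p and C+P highest for miR-29b-3p, and no member passed the limma threshold in any of the pairs of groups tested below.

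**Figure D2:**
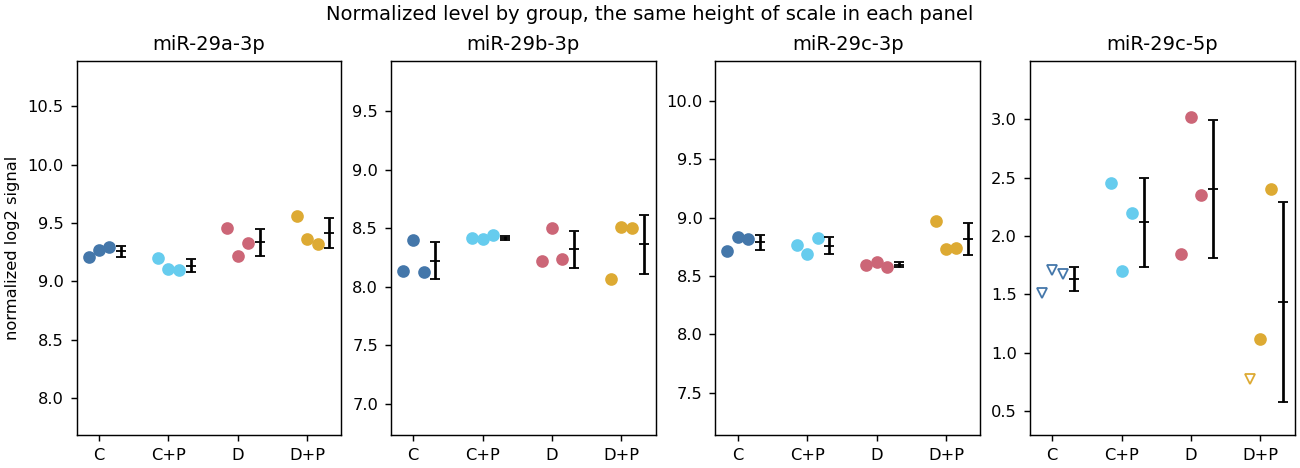
Normalized log2 signal of each member by group, with 1 point per heart and bars for the mean and SD of 3 hearts, over the same height of scale in each panel. The 3p members stay within 0.46 log2 units over the 12 hearts, while miR-29c-5p, whose undetected arrays are open triangles, spreads over more than 1 log2 unit within D and within D+P.

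In diabetic against control hearts, 0 of the 3 3p members passed the threshold (limma over the 4 group means, adjusted p under 0.05 over the 128 miRNAs), while 50% of all miRNAs tested were called in this comparison. The log2 change was 0.08 for miR-29a-3p (standard error 0.12, 95% interval -0.18 to 0.34, limma adjusted p = 0.58). It was 0.10 for miR-29b-3p (standard error 0.15, interval -0.23 to 0.43, limma adjusted p = 0.58). For miR-29c-3p it was -0.19 (standard error 0.11, interval -0.44 to 0.06, limma adjusted p = 0.17). The 3 D hearts were all below the 3 C hearts in miR-29c-3p, and the groups did not overlap in 69.5% of all miRNAs tested. In the other members the groups overlapped. As percentages of the C level the intervals run from -26.3% to 4.34% for miR-29c-3p, from -11.7% to 26.2% for miR-29a-3p and from -14.8% to 34.5% for miR-29b-3p. MiR-29c-3p passed in limma without D+P replicate 1 (-0.20, adjusted p = 0.048). Over the fits with 1 array left out, 33 to 88 of the 128 miRNAs were called in D against C, beside 64 with all arrays. The test named in the study's methods also called miR-29c-3p after Benjamini-Hochberg adjustment (adjusted p = 0.030), along with many others, 74 of the 128 miRNAs in all. With plain Bonferroni adjustment that test called 0 of 3 members and 3 of the 128 miRNAs. Those methods name an adjusted Bonferroni correction, and whether it is the same was not established.

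Pargyline in non-diabetic hearts gave the same count, with 0 of 3 members past the limma threshold in C+P against C and 36.7% of all miRNAs called. The log2 change was -0.12 for miR-29a-3p (standard error 0.12, interval -0.38 to 0.14, limma adjusted p = 0.40), 0.20 for miR-29b-3p (standard error 0.15, interval -0.13 to 0.53, limma adjusted p = 0.29) and -0.03 for miR-29c-3p (standard error 0.11, interval -0.28 to 0.22, limma adjusted p = 0.84). The C+P hearts all lay below the C hearts in miR-29a-3p and all above them in miR-29b-3p, and 75.8% of all miRNAs did not overlap in this comparison. These directions depend on the scaling. Without normalization, where the median of the 128 miRNAs was 1.15 higher in C+P than in C and 0.77 higher in D than in C, all 3 members passed the limma threshold as higher in both. In that fit 96 of the 128 miRNAs passed in C+P against C and 60 in D against C, in either direction. For miR-29a-3p, miR-29b-3p and miR-29c-3p the unnormalized log2 changes were 1.25, 1.41 and 1.26 in C+P and 1.18, 1.02 and 0.82 in D.

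In diabetic hearts, pargyline again left 0 of 3 members past the limma threshold, against 53.9% of all miRNAs called in D+P against D. The change was 0.08 for miR-29a-3p (standard error 0.12, limma adjusted p = 0.54) and 0.04 for miR-29b-3p (standard error 0.15, limma adjusted p = 0.78), the smallest change of all 128 miRNAs in this comparison. MiR-29c-3p had a change of 0.22 (standard error 0.11, interval -0.03 to 0.47, limma adjusted p = 0.13), and each D+P heart was above each D heart, as 56.2% of all miRNAs did not overlap here. As a percentage of the D level the interval for miR-29c-3p runs from -2.38% to 38.1%.

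Diabetes under pargyline, compared within the second slide, gave the only 3p member with an unadjusted p under 0.05 in the limma fit, and miR-29c-5p is described further on. The share of all miRNAs with such a p in that fit is not given here. When only these groups were fitted in limma, 36 of the 128 miRNAs and 0 of 3 members had one. The log2 change of miR-29a-3p in D+P against C+P was 0.28 (standard error 0.12, interval 0.02 to 0.54, limma unadjusted p = 0.036 and adjusted p = 0.10). Its D+P hearts lay at 9.56, 9.37 and 9.32 and its C+P hearts at 9.20, 9.11 and 9.10, so they did not overlap, as was so for 43% of all miRNAs. Without D+P replicate 3 it passed in limma (0.33, adjusted p = 0.040), and without normalization its change was -0.47, where the median of the 128 miRNAs was -0.41. Over the fits with 1 array left out, 1 to 73 of the 128 miRNAs were called in this comparison, beside 17 with all arrays. MiR-29b-3p (-0.06) and miR-29c-3p (0.05) overlapped. In all, 0 of 3 members and 13.3% of all miRNAs were called.

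In D+P against C, where 1.56% of all miRNAs were called, 0 of 3 members passed in limma and 0 had an unadjusted p under 0.05, with changes of 0.16, 0.14 and 0.03 for miR-29a-3p, miR-29b-3p and miR-29c-3p. The interaction asks whether pargyline acted differently in diabetic and in control hearts, and it is free of an additive effect of the slide. It was 0.20 for miR-29a-3p (standard error 0.17, limma adjusted p = 0.30), -0.16 for miR-29b-3p (standard error 0.21, limma adjusted p = 0.53) and 0.24 for miR-29c-3p (standard error 0.16, limma adjusted p = 0.20). Thus 0 of 3 members passed the interaction, in which 70.3% of all miRNAs did. Across these 6 comparisons the median size of the members' changes was 0.06 to 0.20, against 0.19 to 0.88 for all 128 miRNAs.

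**Figure D3:**
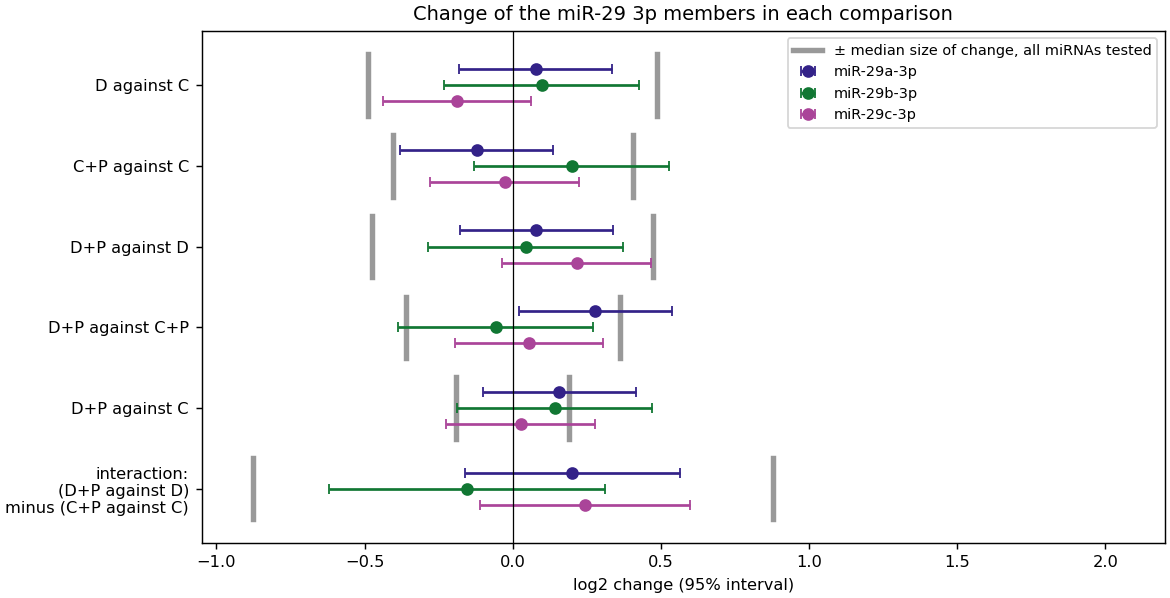
Log2 change of the 3p members in each comparison (points) with 95% intervals from limma. Grey bars mark the median size of the change over the 128 miRNAs in either direction, and every member's point lies inside them.

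The members were among the steadiest miRNAs of the normalized data. The SD of the normalized log2 signal over the 12 hearts was 0.11 for miR-29c-3p, 0.13 for miR-29a-3p and 0.16 for miR-29b-3p, against a median of 0.35 over the 128 miRNAs. From the lowest SD upwards they ranked 2, 5 and 12 of 128. Bright miRNAs vary less on arrays, and the members ranked 12, 10 and 21 by mean signal. Among the 30 brightest miRNAs, where the median SD was 0.23, they ranked 1, 4 and 7. With quantile normalization the ranks among the 128 were 4, 3 and 20 and with the authors' normalized values 7, 10 and 3, but without normalization they were 55, 67 and 86.

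**Figure D4:**
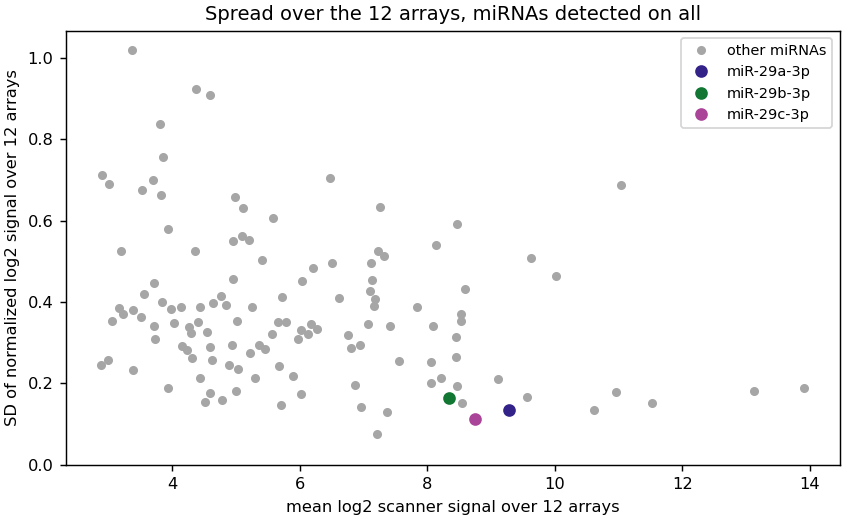
SD of the normalized log2 signal over the 12 hearts against the mean log2 scanner signal, with 1 point for each of 128 miRNAs. The 3p members of the miR-29 family lie at the lower edge among miRNAs of similar brightness, at 0.11 to 0.16.

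Whether the members changed unequally was asked within each array, where the scaling of the array cancels. The log2 scanner signal of miR-29a-3p was subtracted from that of miR-29c-3p, and only changes of this difference are read, since its size also holds the properties of the probes. The difference was -0.47, -0.36 and -0.44 in C, -0.48, -0.45 and -0.31 in C+P, -0.91, -0.66 and -0.78 in D and -0.47, -0.59 and -0.58 in D+P. The D hearts stood below all other hearts.

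Over both levels of pargyline, the difference was -0.66 ± 0.16 in 6 diabetic and -0.42 ± 0.07 in 6 non-diabetic hearts. The signal of miR-29c-3p relative to miR-29a-3p was thus lower in diabetic hearts, with a log2 change of -0.25 (exact permutation test within pargyline status, two-sided, p = 0.01, adjusted p = 0.04 over 4 differences). The test compares 400 relabelings, and the smallest p it allows is 0.005. With each array left out in turn the change stayed between -0.28 and -0.21, with p of at most 0.015. Such a result was not rare in these data, as 10.5% of the 8128 pairs that the 128 miRNAs form had a p under 0.05 in the same exact test, and 53.7% of the pairs changed by less.

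The change was not of 1 size on both slides. It was -0.36 in D against C, where the groups did not overlap, while D+P against C+P gave -0.13 and they did. D+P against D gave 0.24 without overlap and C+P against C gave 0.01 with overlap. The share of all pairs that separate in this way is not given here. Of the single miRNAs, 69.5% did not overlap between the D and C hearts, and 56.2% between the D+P and D hearts. Separation alone thus cannot mark this pair as unusual. With 3 hearts against 3 the exact permutation test cannot go below p = 0.1, which it reached in D against C and again in D+P against D, and it gave 0.2 for D+P against C+P. These members differ by 1 base, and the part of cross-hybridization in the difference was not tested.

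The other differences between 3p members did not pass. MiR-29b-3p minus miR-29a-3p had a difference of -0.16 in diabetic hearts (exact permutation test, p = 0.19, adjusted p = 0.38). For miR-29c-3p minus miR-29b-3p it was -0.09 (exact permutation test, p = 0.495, adjusted p = 0.66). Without D+P replicate 1 the latter was -0.19, with p = 0.015 in the exact test. In that heart miR-29b-3p was lowest of all 12, with a normalized log2 signal of 8.07 against 8.51 and 8.51 in the other D+P hearts, while miR-29a-3p and miR-29c-3p were highest, at 9.56 and 8.97.

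**Figure D5:**
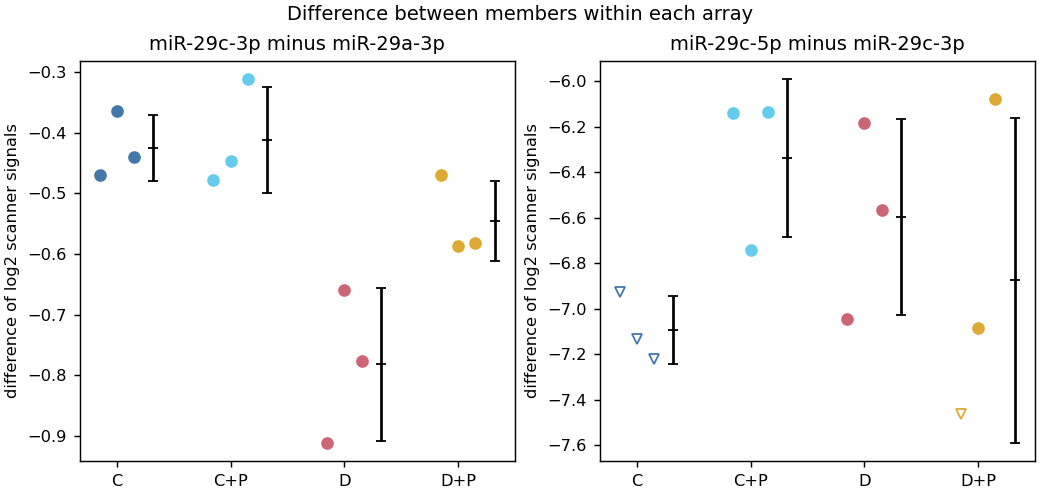
Difference of log2 scanner signals within each array, for miR-29c-3p minus miR-29a-3p on the left and for the arms of miR-29c on the right, with 1 point per heart and bars for the mean and SD of 3 hearts. On the left the 3 D hearts lie lowest, between -0.91 and -0.66, and on the right open triangles mark arrays on which miR-29c-5p was not detected.

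MiR-29c-5p, the arm that is mostly degraded, was close to the limit of detection. It was not detected in C replicates 1, 2 and 3 or in D+P replicate 1. Its scanner signal was 7.22, 5.03 and 13.7 in C+P, 4.21, 6.89 and 4.00 in D and 3.39 and 8.31 in the remaining D+P hearts. The scanner software gave errors of 0.995 to 1.70 for these 8 values. The 4 arrays without a signal were also the 4 with the lowest summed signal, at most 39661 against at least 48104 on the others, and 13 other miRNAs were detected on exactly the same 8 arrays. The part of array brightness in this pattern was not tested. The 5p arms of the sister hairpins were detected on fewer arrays, with miR-29a-5p and miR-29b-2-5p detected on 0 arrays and miR-29b-1-5p on 1, C replicate 2, with a signal of 2.50.

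The arm was tested among 209 miRNAs, those with a signal on each array of 1 or more groups, with undetected values set to the lowest detected signal of the array. In that fit its normalized log2 level was 2.12 ± 0.38 in C+P, 2.40 ± 0.59 in D and 1.43 ± 0.86 in D+P, where the last mean rests on 1 such imputed value. The C arrays give only a limit of 1.63 ± 0.11. It entered this fit through C+P and D, the groups in which every array detected it, so its levels there are partly fixed by the filter. Measured against that limit, the mean of D lay 0.77 higher on the log2 scale (interval -0.12 to 1.66, limma adjusted p = 0.13, with 46.9% of the 209 miRNAs called) and that of C+P 0.48 higher (interval -0.40 to 1.37, limma adjusted p = 0.39, with 18.2% called). Both intervals include 0, so no lower bound on a fold is given. For D+P, detected in 2 of 3 hearts, the difference was -0.20 (limma adjusted p = 0.82, with 4.78% called). With the authors' normalized values, an alternative chosen after seeing the data, C+P lay below C (-1.01, limma adjusted p = 0.33).

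Between detected groups the changes did not pass either in this fit. The log2 change was -0.97 in D+P against D (standard error 0.40, interval -1.86 to -0.08, limma unadjusted p = 0.035 and adjusted p = 0.067, with 47.8% called) and -0.68 against C+P (standard error 0.40, limma adjusted p = 0.23, with 5.74% called), and the D+P hearts overlapped with both. With the authors' normalized values, chosen after seeing the data, D+P against D was -3.18 and passed (limma adjusted p = 0.022). Without D+P replicate 3 the changes of D+P against D and against C+P passed in limma, at -1.47 (adjusted p = 0.0041) and -1.17 (adjusted p = 0.021). D against C then passed as well (0.79, adjusted p = 0.040). These passes are descriptions, since the arm entered the fit through C+P and D and the C values are limits. The share of all miRNAs called in these fits is not given here, so the passes cannot be set against it. Without replicate 3, D+P rests on replicates 1 and 2, of which replicate 1 is imputed. The interaction was -1.45 (standard error 0.57, interval -2.71 to -0.20, limma adjusted p = 0.046, with 58.9% called). This value is given as a description, since it contains the C limit, the imputed D+P value and the groups through which the arm passed the filter. With 1 array left out it passed only without C+P replicate 2, D replicate 1 or D+P replicate 3. Without any of the other 9 arrays it was -1.51 to -1.12 and did not pass in limma.

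The arms of miR-29c were then compared within arrays. The log2 signal of miR-29c-5p minus that of miR-29c-3p was -6.74, -6.14 and -6.14 for the C+P hearts in ascending order, -7.05, -6.57 and -6.19 for D, and -7.09 and -6.08 for the D+P hearts with a signal. In the C hearts the limit was -7.22 to -6.93, and in D+P replicate 1 it was -7.46. With these 4 limits taken as values, the difference changed by 0.50 in D against C, where the groups overlapped (exact permutation test, p = 0.2), and by 0.75 in C+P against C, where they did not overlap (exact permutation test, p = 0.1, the smallest that 3 against 3 hearts allow). Every C value is a limit, while every D and C+P array detected the arm. Both changes are thus partly fixed by detection and do not show whether the arms changed unequally. In D+P against C+P the difference changed by -0.54, with overlap (exact permutation test, p = 0.4). Over both pargyline states the change in diabetic hearts was -0.02 (exact permutation test, p = 0.95), a mean of the opposite values 0.50 and -0.54 that rests on limits for 4 of 12 hearts, so it says nothing on whether the arms changed unequally.

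The members did not follow each other across hearts. Over the 12 hearts the Pearson correlation of normalized values was -0.48 between miR-29a-3p and miR-29b-3p, 0.19 between miR-29a-3p and miR-29c-3p and -0.23 between miR-29b-3p and miR-29c-3p. These are descriptions over arrays that share slides and a normalization, and the spans are small. Among the 125 other miRNAs, those most like miR-29a-3p were miR-30d-5p (r = 0.75, Spearman's rho 0.66), miR-3102-5p (0.74, 0.68) and miR-486a-5p (0.73, 0.75), the last a miRNA abundant in red blood cells. Most like miR-29b-3p were miR-101a-3p (r = 0.78, rho 0.90) and miR-101c (0.77, 0.84), which share a family, and miR-143-3p (0.72, 0.79), a smooth muscle miRNA. Most like miR-29c-3p were miR-5128 (r = 0.88, rho 0.76), miR-3473b (0.84, 0.76) and miR-3473a (0.84, 0.64).

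Other miRNAs tied to cardiac fibrosis were taken from 2 lists for comparison. Among those reported to restrain it, 6 of 6 were measured on all arrays, and miR-30a-5p moved most often. MiR-30a-5p, which is known to target connective tissue growth factor, fell by 0.52 on the log2 scale in D against C (limma adjusted p = 0.030), and it fell by 0.63 in C+P against C (limma adjusted p = 0.026). Compared with D it rose by 0.52 in D+P (limma adjusted p = 0.031), and by 0.63 in D+P against C+P (limma adjusted p = 0.042). Its paralog miR-30c-5p rose by 0.47 in C+P against C (limma adjusted p = 0.038), and miR-26a-5p fell by 0.34 there (limma adjusted p = 0.030). MiR-101a-3p, miR-24-3p and the muscle miRNA miR-133a-3p passed in 0 of the 6 comparisons in limma. The list thus had 1 of 6 lower in D, beside 50% of all 128 miRNAs called in either direction, and 1 higher and 2 lower in C+P, beside 36.7%. It had 1 higher in D+P against D, beside 53.9%, and 1 higher in D+P against C+P, beside 13.3%. In limma 0 passed in D+P against C, where 0 had an unadjusted p under 0.05, beside 1.56%. In the interaction 2 were higher and 1 lower, beside 70.3%. Its median change in D against C was 0.13, beside 0.02 over all 128 miRNAs.

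Among miRNAs reported to promote fibrosis, 4 of 5 were measured on all arrays, and miR-155-5p was detected on 7. MiR-34a-5p, which is induced by p53, rose by 0.52 in D (limma adjusted p = 0.014) and compared with D it fell by 0.58 in D+P (limma adjusted p = 0.013). MiR-21a-5p, a fibroblast miRNA, did not pass in D (0.10, limma adjusted p = 0.62) and compared with D it fell by 0.43 in D+P (limma adjusted p = 0.047). It fell by 0.73 in D+P against C+P (limma adjusted p = 0.018). MiR-208a-3p, encoded in the alpha myosin heavy chain gene of cardiomyocytes, fell by 0.78 in D against C (limma adjusted p = 0.0073). The counts were 1 of 4 higher and 1 lower in D (50% of all miRNAs called), 2 lower in D+P against D (53.9%) and 1 lower in D+P against C+P (13.3%). In the interaction 1 was higher and 3 lower (70.3%). In limma 0 of 4 passed in C+P against C (36.7%), where 3 had an unadjusted p under 0.05, and 0 of 4 in D+P against C (1.56%), where 0 did. The share of all miRNAs with such an unadjusted p is not given here, so the 3 cannot be set against it. The list's median was 0.22 in D against C, beside 0.02 over all miRNAs, and in D+P against D it was -0.39, beside -0.09.

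Markers of cell types were read beside the family. Of 4 fibroblast miRNAs, 3 had a signal on every array. Their share of the summed signal was 0.312% to 0.334% for C, 0.408% to 0.475% for C+P, 0.351% to 0.419% for D and 0.186% to 0.365% for D+P, and miR-214-3p was detected on 6 arrays. The 4 cardiomyocyte miRNAs made up 6.75% to 7.04%, 10.7% to 13.03%, 9.73% to 12.8% and 4.26% to 10.7%. In the same groups miR-29a-3p alone held 1.08% to 1.23%, 1.17% to 1.34%, 1.35% to 1.71% and 1.01% to 1.43%. The part of cell composition in the levels of the family was not tested.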

How the data were processed

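MiRNAs were measured on 1-colour Agilent mouse arrays built on miRBase 21, 1 array per heart, and replicate numbers and groups were taken from the labels. Per the study's methods, the scanner images were read with Agilent's extraction software. The authors deposited its intensity per miRNA, a background-corrected total over the probes of a miRNA with no normalization between arrays, with an error and a detection flag as other columns, and an undetected miRNA is written there as 0.1. The authors also deposited normalized intensity values, made by a filter on detection and cyclic loess, which serve here as an alternative. The 21 control rows were left out. Sources differ on the RNA labelled per array, and the labels name macrophages in the extraction text although the tissue given is heart muscle.

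The log2 scanner signals of the 128 miRNAs with a signal on all 12 arrays went through cyclic loess (span 0.7, 3 iterations) in limma 3.58.1 under R 4.3.3. Moderated tests (lmFit, eBayes) were made on the 4 group means, with Benjamini-Hochberg adjustment over all miRNAs tested and a threshold of 0.05. MiR-29c-5p was taken from the fit over 209 miRNAs described above. Differences within arrays used unnormalized log2 signals and exact permutation tests. The script was tested on simulated data. Signals on an array do not count molecules, and the number of arrays limits the precision. No pair of arrays held identical signals, and nothing states how far the hearts are independent beyond being from different mice.

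The members, the fibrosis and marker lists and the tests were chosen with earlier results of these data known. Named miRNAs are the members, the other arms of their hairpins, the 3 miRNAs most correlated with each 3p member and the fibrosis lists. Replicate numbers were not taken as pairs in the main fit, and the alternatives are named in the closing section. The study's other experiments were not analysed here.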

Additional observations from a re-analysis of the deposited data

Results flagged for a closer look

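The interaction of diabetes and pargyline in miR-29c-5p was -1.45 on the log2 scale (standard error 0.57, limma adjusted p = 0.046), the difference between the pargyline changes in diabetic hearts (-0.97, D+P against D) and in control hearts (0.48, C+P against C). It is given as a value only, since miR-29c-5p passed the filter through C+P and D, where every array detected it. The C mean is a limit from 3 arrays on which the miRNA was not detected, and in D+P replicate 1 it was also not detected. The 4 arrays without a signal had the lowest summed signals, and the part of array brightness was not tested. Among the 209 miRNAs of the same fit, 58.9% passed this interaction and 73.7% had a smaller one. It kept its sign under every alternative run, from -2.74 to -0.39, and no longer passed under 5 of them or without any 1 of 9 of the 12 arrays.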

How the results depend on the processing

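The within-array change of miR-29c-3p minus miR-29a-3p passed the exact test under each alternative run for it. Of the 3p members, 0 of 3 passed in each comparison run with quantile normalization, the 75th percentile of the 128 miRNAs, the filter of 209 miRNAs, no filter, the authors' normalized values, 16 added before the log2, the intensity trend, each slide normalized alone and only the groups compared in the fit. Where the 128 miRNAs were fitted, 47 to 79 of them were called in D against C and 29 to 85 in C+P against C. In D+P against D, against C+P and against C, the authors' values called 3, 1 and 0. The fit of only the groups compared called 0, 1 and 0. There, 0 of 3 does not set the members apart from the rest. Without normalization 3 of 3 passed in D against C, C+P against C and the interaction, and with the 75th percentile of all miRNAs, which falls among undetected miRNAs, 3 of 3 passed in these and in D+P against C. In D against C, C+P against C and the interaction, 60, 96 and 70 of the 128 miRNAs passed without normalization. With the 75th percentile of all miRNAs 74, 107 and 73 passed in the same order, and 58 in D+P against C. The methods' t-test called 1 of 3 in D against C with Benjamini-Hochberg and 0 with plain Bonferroni adjustment, beside 74 and 3 of the 128 miRNAs. With 1 array left out the count was 0 to 1 in D against C, and likewise 0 to 1 in D+P against C+P. Of all 128 miRNAs, 33 to 88 passed in the former and 1 to 73 in the latter.

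Changes of uncalled members turned sign as follows, in log2 units. With quantile normalization miR-29a-3p was 0.0081 in C+P against C and -0.0081 in the interaction, miR-29b-3p was -0.0095 in D+P against D, and miR-29c-3p was -0.021 in D+P against C+P and -0.021 against C. With the 75th percentile of the 128 miRNAs miR-29a-3p was 0.16 in C+P against C, -0.14 in D+P against D and -0.29 in the interaction, miR-29c-3p was 0.17 in C+P against C, -0.090 in D+P against C+P and -0.069 in the interaction, and miR-29c-5p was 0.30 in D+P against C. With the 75th percentile of all miRNAs miR-29a-3p was 1.54 in C+P against C, -0.39 in D+P against D, -0.52 in D+P against C+P and -1.93 in the interaction, miR-29b-3p was -0.24 in D+P against D, miR-29c-3p was 1.06 in D against C, 1.56 in C+P against C, -0.15 in D+P against D, -0.65 in D+P against C+P and -1.71 in the interaction, and miR-29c-5p was 1.12 in D+P against C. Without normalization miR-29a-3p was 1.25 in C+P against C, -0.40 in D+P against D, -0.47 in D+P against C+P and -1.65 in the interaction, miR-29b-3p was -0.25 in D+P against D, miR-29c-3p was 0.82 in D against C, 1.26 in C+P against C, -0.17 in D+P against D, -0.61 in D+P against C+P and -1.43 in the interaction, and miR-29c-5p was 0.87 in D+P against C. With the filter of 209 miRNAs miR-29a-3p was -0.042 in D+P against D and -0.0080 in the interaction. With no filter it was 0.028 in C+P against C, -0.091 in D+P against D and -0.12 in the interaction, and miR-29c-3p was 0.060 in C+P against C and -0.0012 in D+P against C+P. With the authors' normalized values miR-29a-3p was -0.065 in D+P against C, -0.051 in D+P against D and -0.014 in D against C, miR-29b-3p was -0.015 in D against C, -0.022 in C+P against C, 0.030 in D+P against C+P and 0.045 in the interaction, and miR-29c-3p was -0.13 in D+P against C. With these values for all 209 miRNAs, chosen after seeing the data, miR-29c-5p was -1.01 in C+P against C. With cyclic loess values the arm difference of miR-29c was 0.098.

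With 1 array left out, the ranges were -0.074 to 0.014 for miR-29c-3p in C+P against C, -0.13 to 0.096 for miR-29b-3p and -0.032 to 0.10 for miR-29c-3p in D+P against C+P, -0.060 to 0.071 for miR-29c-3p and -0.68 to 0.11 for miR-29c-5p in D+P against C, -0.033 to 0.21 for miR-29b-3p in D+P against D, -0.24 to 0.019 for miR-29b-3p in the interaction, -0.19 to -0.028 for miR-29c-3p minus miR-29b-3p and -0.22 to 0.13 for the arm difference. The interaction of miR-29c-5p did not pass in limma with the 75th percentile of the 128 miRNAs (-1.10, adjusted p = 0.099), no filter (-1.28, 0.94), 16 added (-0.39, 0.057), the authors' values (-2.17, 0.14) or the replicate block (-1.45, 0.053). MiR-29c-5p passed in limma in D+P against D with the authors' values (-3.18, adjusted p = 0.022). It passed in C+P against C without normalization (2.02, 0.0056) and with the 75th percentile of all miRNAs (2.31, 0.00071). With the latter it also passed in D against C (1.55, 0.017). Its C values are limits, and it passed the filter through C+P and D. The share of the miRNAs fitted with it that passed under these alternatives is not given here.

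The replicate number as a block called 8 of 128 miRNAs in D+P against C+P in place of 17 and 0 of 3 members throughout. The deviations of same-numbered arrays, rather than their signals, correlated between -0.37 and 0.49, with 4 of 18 pairs over 0.1. Differently numbered arrays were not compared, so whether the numbers pair the hearts was not settled. The counts over all 128 miRNAs also moved. With 1 array left out they were 33 to 88 in D against C in place of 64, 3 to 79 in C+P against C in place of 47, 13 to 89 in D+P against D in place of 69, 1 to 73 in D+P against C+P in place of 17 and 0 to 32 in D+P against C in place of 2. When only the groups compared were fitted in limma, 85 passed for pargyline in control hearts and 0 in diabetic hearts, where 52 had an unadjusted p under 0.05, and with the authors' values 29 and 3 did. The cause of these changes was not tested. Leaving out arrays with an undetected arm could give no value for the arm difference, since it removes every C array. Signals near the lowest detected one limit miR-29c-5p.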
